A study of Mus musculus with 6 samples.

Results

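Prss50 and 6 other genes that encode serine proteases were examined in the IVD (intervertebral disc) of postnatal day 20 mice. They are the rows listed as Prss50, Prss23, Prss35, Prss12, Htra1, Htra2 and Htra3, 7 of the 43472 gene symbols counted. Prss50 was chosen by its lower counts in mutant libraries, so its difference between genotypes is given as a description with no test, and the others were taken by family. The RNA-seq compared 3 libraries of Col2Cre;Adgrg6 f/f mice with 3 libraries of control mice, each a pool of IVDs from 2 to 3 animals labelled with the strain C57B6/J. The purpose was to find early changes of expression in discs that lack the adhesion G-protein coupled receptor ADGRG6. In the mutants, Cre from a Col2 driver deletes floxed Adgrg6 throughout the disc and also in the periosteum and bone of the vertebra. The controls are wild type by their genotype label, Col2Cre controls by their titles and Cre (-) littermates in the results of the paper. Which floxed alleles they carry is not given, so the effect of Cre itself and that of the deletion cannot be told apart.

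Serine proteases cut peptide bonds with an active serine in a catalytic triad. PRSS proteins are trypsin-like enzymes, many of them secreted, while HTRA proteins form trimers that combine a protease domain with a PDZ domain. HTRA1 and HTRA3 are secreted and degrade matrix proteins, HTRA1 being well known in cartilage and in osteoarthritis, whereas HTRA2 resides in mitochondria and promotes cell death once released. PRSS50, also called testis-specific protease 50, is best known from male germ cells, and it carries a threonine in place of the catalytic serine. PRSS35 also lacks that serine, PRSS23 is a widely expressed secreted protease and PRSS12, or neurotrypsin, cleaves agrin at synapses.

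The start region of Prss50 is shown because the gene was chosen by its lower counts in mutant libraries. That of Ihh, the hedgehog ligand of prehypertrophic chondrocytes, is shown because its level was among the 5 most like Prss50 over the libraries. Also shown is that of Htra1, the most abundant of the 7 genes. All were read from RefSeq windows on GRCm38.p6, which matched 6 of the 7 genes, and run 5′ to 3′ over the 250 bases before the annotated start and the first 20 after it. Prss50 is on the plus strand at chr9:110857714-110857983, Ihh on the minus strand at chr1:74951653-74951922 and Htra1 on the plus strand at chr7:130935953-130936222. Capitals mark matches, on either strand, to motifs of known factors that are spelled out after the sequences.
Prss50: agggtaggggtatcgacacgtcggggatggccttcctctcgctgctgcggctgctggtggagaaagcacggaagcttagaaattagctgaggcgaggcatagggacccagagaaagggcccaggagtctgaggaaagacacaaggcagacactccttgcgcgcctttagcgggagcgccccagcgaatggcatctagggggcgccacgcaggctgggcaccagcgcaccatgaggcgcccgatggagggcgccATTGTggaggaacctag
Ihh: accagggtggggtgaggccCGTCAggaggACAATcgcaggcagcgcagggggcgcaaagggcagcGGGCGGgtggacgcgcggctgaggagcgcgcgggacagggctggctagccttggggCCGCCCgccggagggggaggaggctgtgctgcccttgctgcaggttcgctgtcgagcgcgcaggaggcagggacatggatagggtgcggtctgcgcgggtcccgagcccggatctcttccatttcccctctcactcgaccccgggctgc
Htra1: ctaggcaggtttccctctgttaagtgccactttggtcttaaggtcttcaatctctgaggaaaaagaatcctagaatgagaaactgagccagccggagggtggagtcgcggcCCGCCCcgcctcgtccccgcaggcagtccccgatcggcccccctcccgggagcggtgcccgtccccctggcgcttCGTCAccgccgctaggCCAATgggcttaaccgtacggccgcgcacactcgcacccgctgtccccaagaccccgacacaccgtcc
The only match in the Prss50 region was to ACAAT, core letters of sites bound by Sox factors, which it holds once on the minus strand just after the start. That motif occurs in 31% of all 32851 windows of 300 bases around annotated starts. The Ihh region also holds it once, together with 1 match to TGACG, part of the cAMP response element, and 2 matches to the GC box GGGCGG that Sp1 binds. In the Htra1 region the GC box, that part of the response element and the CCAAT box each occur once. Among all windows 20.8% hold TGACG, and 1.79% hold the full response element TGACGTCA, which contains it. The GC box is found in 35.7% of them and CCAAT in 37.4%. The STAT motif TTCNNNGAA, in 8.3% of windows, and the TATA box, spelled TATAAA and in 13.6%, have no match in any of the 3 regions shown. The Prss50, Ihh and Htra1 sequences shown have a GC content of 63%, 72.2% and 64.8%. These lie above the median of 52.6% over all windows, which hold 300 bases where the sequences shown hold 270.

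The libraries held between 9061491 and 12017008 counts on genes. Cartilage markers were abundant, with Acan at 3565 to 5462 CPM (counts scaled to library size, with TMM factors) and Sox9 at 398 to 660.4 CPM, and the notochordal marker T was at 129.8 to 449.8 CPM, while Noto had 1 count in all. Adgrg6, listed as Gpr126, was at 94.3 to 124 CPM in control and 106 to 138 CPM in mutant libraries (log2 fold change 0.17, unadjusted p = 0.367 from edgeR). Its counts appear to run over the whole gene, and reads of the floxed part alone were not examined, so the deletion was not tested here. Control replicate 1 stood apart by its skeletal muscle markers, which summed to 4604 CPM there and to 206 to 297 CPM in the other 5 libraries. The edgeR quasi-likelihood test was run on 16152 genes, all 7 proteases among them. Of the tested genes, 7.21% had an unadjusted p under 0.05, 0.00619% had an adjusted p under 0.05, and in 11.4% the 3 libraries of one genotype lay apart from those of the other. These shares moved with single libraries and tools. At an unadjusted p under 0.05 there were 1164 of 16152 genes, but 2427 of 17164 without control replicate 1 and 618 of 16388 without control replicate 3, so list counts with a library left out have another background. At an adjusted p under 0.05 there was 1 gene, which is Prss50 itself, chosen for that difference, so nothing is read from it. The count was 0 with the replicate number as a block, in limma-voom and with any library but control replicate 1 left out, and it was 31 without control replicate 1, 58 in DESeq2 and 245 without the filter on low counts.

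Prss50 lies on the plus strand of chromosome 9 from 110857967 to 110864629 (GENCODE M21 on GRCm38), is annotated with 5 merged exons of 1456 bases in all, and overlaps no other annotated gene. Its transcript was at 35.7, 47.5 and 32.7 CPM in control replicates 1, 2 and 3, and at 10.5, 10.1 and 11 CPM in mutant replicates 1, 2 and 3. Every mutant library was below every control library, and the highest mutant value was well under the lowest control value. The means were 38.6 ± 7.83 CPM (SD, n = 3) in control and 10.5 ± 0.470 CPM (SD, n = 3) in mutant IVDs. This is a log2 fold change, mutant over control, of -1.87 with a standard error of 0.20, or 3.66-fold more in controls. These values rest on 334, 428 and 418 counts in the controls and 92, 124 and 104 in the mutants. Leaving out single libraries put this value between -1.97, without control replicate 3, and -1.70, without control replicate 2. It was -1.90 without control replicate 1, the library rich in muscle transcripts. In pools of whole discs, fewer cells that express a gene and less RNA per cell cannot be told apart.

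Its level was also set against those of other genes, as a description. Per length of merged exons, Prss50 was at 76.4 ± 16.5 TPM (SD, n = 3; counts divided by exon length and scaled to 1 total in all libraries) in control IVDs, above 90.6% of 15909 tested genes with a known length. In mutant IVDs it was at 19.0 ± 3.31 TPM (SD, n = 3), above 66.2% of them. Its coefficient of variation was 20.3% among control and 4.45% among mutant libraries. For 3661 genes with a mean CPM within 1.5-fold of that of Prss50, the median coefficient of variation was 15.2% in control and 16.1% in mutant libraries. Counting alone gives 5.04% and 9.68% at these counts, so the mutant libraries varied by less than counting error and the control libraries by more.

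**Figure D1:**
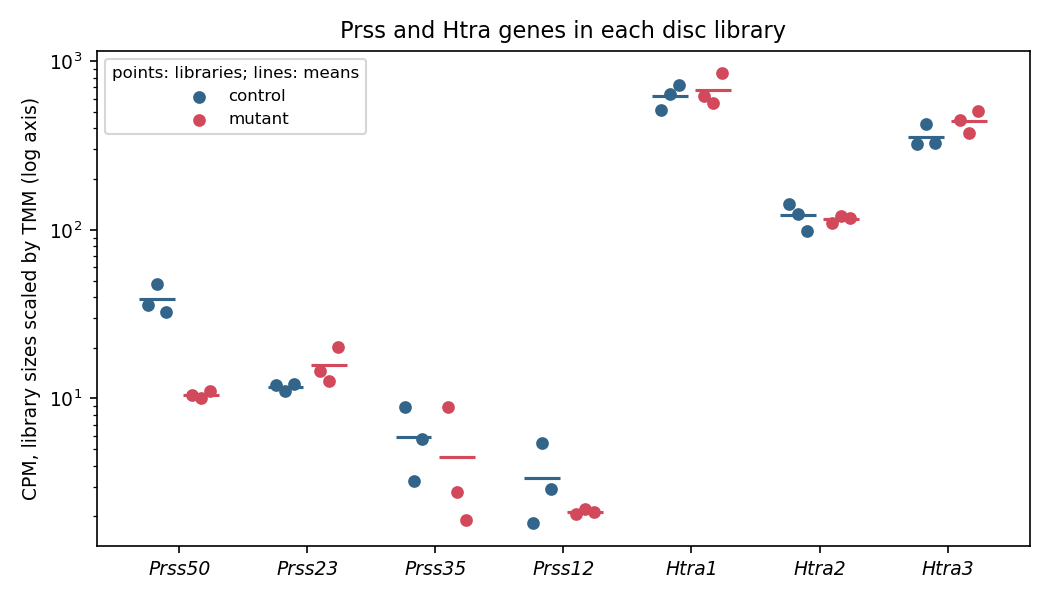
CPM of each gene (log axis, library sizes scaled by TMM) in 3 control and 3 mutant libraries, with points for libraries and lines for the means. There is a gap between the genotypes for Prss50, from 32.7 CPM down to 11 CPM, and, on this scale, for Prss23, from 12.1 up to 12.6 CPM, and Htra1 and Htra3 are the most abundant.

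In edgeR, 0 of the other 6 proteases had an unadjusted p under 0.05 in either direction, beside 7.21% of all genes, and 0 an adjusted one, as in DESeq2 and in limma-voom. With so few genes, a count of 0 is near that share. Of these genes 3 had a higher and 3 a lower fitted level in mutants, and their median log2 fold change was 0.02, beside -0.01 over all genes tested. The libraries of the genotypes did not overlap in CPM for 1 of the 6, Prss23, beside 11.4% of all genes, or 5.45% with the mutants higher. Without mutant replicate 1 the count at an unadjusted p under 0.05 was 1, which was Prss35, and without mutant replicate 2 it was 1, which was Prss23.

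**Figure D2:**
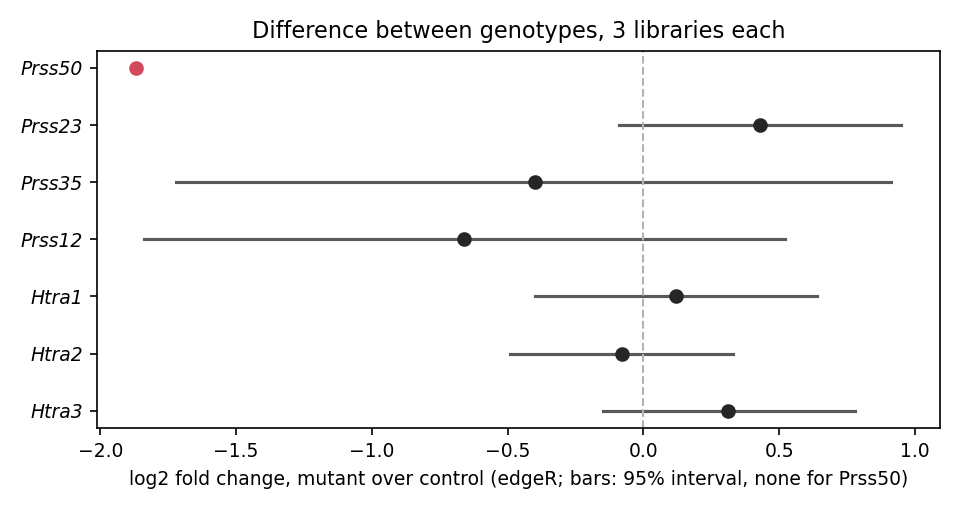
Log2 fold change of mutant over control from edgeR (horizontal axis, log2 units) for each of the 7 genes, with 95% intervals over 3 libraries a genotype, left out for Prss50, which was chosen for this difference. The intervals of the other 6 genes all include 0, and the widest, for Prss35, runs from -1.72 to 0.91.

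Htra1, on the plus strand of chromosome 7 from 130936111 to 130985660, was the most abundant of the 7 genes. It was at 514, 637 and 722 CPM in control replicates 1 to 3 and at 622, 564 and 848 CPM in mutant replicates 1 to 3. The genotypes overlapped, with the lowest value in a control and the highest in a mutant library. Its means were 624 ± 105 CPM in control and 678 ± 151 CPM in mutant IVDs (SD, n = 3). The fitted log2 fold change was 0.12 with a 95% interval from -0.40 to 0.64 (edgeR, unadjusted p = 0.622 and adjusted p = 0.932). That interval leaves room for levels in mutants from 0.757 to 1.56 times those in controls. Per length, Htra1 was at 464 to 856 TPM over the 6 libraries, and in control IVDs 99% of tested genes were below it.

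The whole of Htra1 lies inside Fgfr2, the gene of a fibroblast growth factor receptor, which GENCODE places on the opposite strand from 130162451 to 133123350. Only 1 of 27 Fgfr2 transcripts, with the weakest support level of 5, reaches over Htra1, and the RefSeq gene ends at 130266808, 669 kb away. The genes have no exonic base in common, so Htra1 falls in an intron of that transcript. Counts in these files nevertheless followed whole gene bodies. Among 135 protein-coding genes that lie inside a gene of the same strand without sharing an exon, 97.8% were at 0 throughout, while the same held for 14% of 20078 genes that lie in no other gene and for 19.9% of 322 that lie, like Htra1, inside a gene of the opposite strand. There were 19 genes with over 5000 counts inside a gene of the opposite strand, also without a shared exon. Of these, 10 had a host with 0.67 to 1.5 times their own counts. Another 1 had a host with under 0.5 times, at 0.00255 times, so hosts do not always have a like count. The library kit does not mark strand, so reads of Htra1 cannot be told from reads of Fgfr2 on the other strand. Fgfr2 had 80118 counts over the 6 libraries and Htra1 40129, and the ratio in a library ran from 1.61 to 2.3. Fgfr2 had a log2 fold change of 0.08 (edgeR, unadjusted p = 0.729), and the sum of both genes one of 0.09 (edgeR, unadjusted p = 0.704). Counts of Fgfr2 may include reads of Htra1, and the sum includes its counts, so neither value is independent of that of Htra1.

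Htra3, the secreted relative of Htra1, lies on the minus strand of chromosome 5 from 35652023 to 35679782. It was at 321, 423 and 327 CPM in control and at 449.7, 374 and 506 CPM in mutant replicates 1 to 3. Control replicate 2 exceeded mutant replicate 2, so the genotypes overlapped. For Htra3 the log2 fold change was 0.31 with a 95% interval from -0.15 to 0.78 (edgeR, unadjusted p = 0.161 and adjusted p = 0.780). With each library left out it ranged from 0.21, without mutant replicate 3, to 0.45, without control replicate 2.

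Htra2, the mitochondrial member, lies on the minus strand of chromosome 6 from 83051266 to 83055273. Its values were 143, 124 and 99.0 CPM in control and 109, 120 and 118 CPM in mutant replicates 1 to 3. All mutant libraries lay within the range of the controls. The fitted log2 fold change was -0.08 with a 95% interval from -0.49 to 0.33 (edgeR, unadjusted p = 0.683 and adjusted p = 0.943). Of its 2946 exonic bases, 535 are also exonic in Loxl3, a lysyl oxidase that crosslinks collagen, and 753 in Aup1, a lipid droplet protein, both on the opposite strand. Loxl3 had 3.24 to 4.23 times and Aup1 0.768 to 1.03 times the counts of Htra2 in a library. The log2 fold change of Loxl3 was 0.09 (edgeR, unadjusted p = 0.735) and that of Aup1 -0.05 (edgeR, unadjusted p = 0.814). With the 3 genes summed the log2 fold change was 0.04 (edgeR, unadjusted p = 0.877), above 0 where Htra2 alone was below it, as it also was without control replicate 1 (0.07) and without mutant replicate 1 (0.00035).

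Within each library Htra1 made up most of the transcripts of the 3 HTRA genes per length. Its share was 59.6%, 61.7% and 70% in control and 61%, 61% and 65.7% in mutant replicates 1 to 3. Htra3 held 20.6% to 26.6% in control and 25.4% to 28.6% in mutant libraries, and Htra2 8.93% to 16.2% over all 6. Htra1 had the highest level per length in every library, followed by Htra3 with 192 to 331 TPM and Htra2 with 79.2 to 129 TPM, and the ranges of these 3 genes did not overlap between Htra1 and Htra3 or between Htra3 and Htra2. Prss50 came next and was below Htra2 in 6 of 6 libraries. Its value in control replicate 2, 95.3 TPM, nevertheless lay in the range of Htra2, whose lowest value was in mutant replicate 1. Prss23, with 8.31 to 15.6 TPM, was below Prss50 in every library, and Prss35 was below Prss23. Prss35, with 1.61 to 6.86 TPM, and Prss12, with 1.69 to 6.11 TPM, could not be ordered, since each was the higher in 3 of 6 libraries. Counts that include introns raise such levels for genes with long introns. The shares and the order also include any reads of Fgfr2 counted for Htra1, and of Loxl3 or Aup1 counted for Htra2. They leave out any reads counted the other way.

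Prss23 lies on the minus strand of chromosome 7 from 89507783 to 89527187. It was at 12.0, 11 and 12.1 CPM in control and at 14.6, 12.6 and 20.2 CPM in mutant replicates 1 to 3. Every mutant library was above every control library, but the closest differed little, and mutant replicate 3 stood above the rest. Per length the genotypes overlapped, at 8.47 to 9.82 TPM in control and 8.31 to 15.6 TPM in mutant libraries. Its log2 fold change was 0.43 with a 95% interval from -0.09 to 0.95 (edgeR, unadjusted p = 0.0967 and adjusted p = 0.729). Leaving out mutant replicate 3 gave 0.22, and leaving out mutant replicate 2 gave 0.58 (edgeR, unadjusted p = 0.0397). Prss23os, an antisense transcript, shares 864 of the 3767 exonic bases of Prss23 and had 0.29 to 0.786 times its counts. The fitted log2 fold change of Prss23os was 0.09 (edgeR, unadjusted p = 0.841).

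Prss35 lies on the plus strand of chromosome 9 from 86743649 to 86758443, far from Prss50. It was at 8.88, 3.22 and 5.71 CPM in control and at 8.88, 2.77 and 1.91 CPM in mutant replicates 1 to 3. Both genotypes had a library at 8.88 CPM, and the mutant libraries spanned 4.64-fold, a coefficient of variation of 84.0% where counting alone gives 15.2%. The log2 fold change was -0.40 with a 95% interval from -1.72 to 0.91 (edgeR, unadjusted p = 0.512 and adjusted p = 0.902). Without control replicate 1 it became 0.02. It was -0.04 when mutant replicate 3 was left out, -0.13 when mutant replicate 2 was, and -1.30 without mutant replicate 1 (edgeR, unadjusted p = 0.0423), so single libraries decide this value.

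Prss12, on the plus strand of chromosome 3 from 123446913 to 123506597, was low like Prss35. It was at 1.82, 5.44 and 2.89 CPM in control and at 2.05, 2.20 and 2.12 CPM in mutant replicates 1 to 3. The mutant libraries were nearly equal and lay inside the wider range of the controls. Its log2 fold change was -0.66 with a 95% interval from -1.84 to 0.52 (edgeR, unadjusted p = 0.240 and adjusted p = 0.807), and -0.16 without control replicate 2. The values rest on 168 counts over 6 libraries, and the coefficient of variation among controls was 55%, where counting alone gives 17.1%.

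The genes whose levels over the 6 libraries were nearest to Prss50, after each gene's mean was subtracted, were Rspo4, Ihh, Il17b, Alpk2 and Fxyd2. Their root-mean-square difference from Prss50 was 0.24, 0.26, 0.27, 0.28 and 0.28 on the log2(CPM + 1) scale, where Prss50 itself varied about its mean by 0.90. Rspo4 encodes an R-spondin that strengthens Wnt signals, and it was at 26.4, 32.1 and 20.4 CPM in control and 9.10, 8.81 and 11.3 CPM in mutant libraries. Ihh was at 188, 189 and 112 CPM in control and 63.3, 47.7 and 63.6 CPM in mutant libraries. Il17b, an IL-17 family cytokine, was at 51.9, 61.2 and 48.2 CPM in control and 19.0, 24.1 and 20.9 CPM in mutant libraries. Fxyd2, a regulator of the sodium pump, was at 238 to 334 CPM and 97.2 to 146 CPM, and Alpk2, an alpha kinase, at 6.10 to 11.4 CPM and 2.76 to 3.18 CPM. In each of the 5 genes, as in Prss50, every mutant library was below every control library. The 5 genes were picked for their likeness to Prss50 and are given with no test. For Htra1 the nearest genes were Cyb5r3, Dpcd, Bbc3, Cltb and Tnip1, with differences of 0.05 to 0.07, where Htra1 varied by 0.23.

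**Figure D3:**
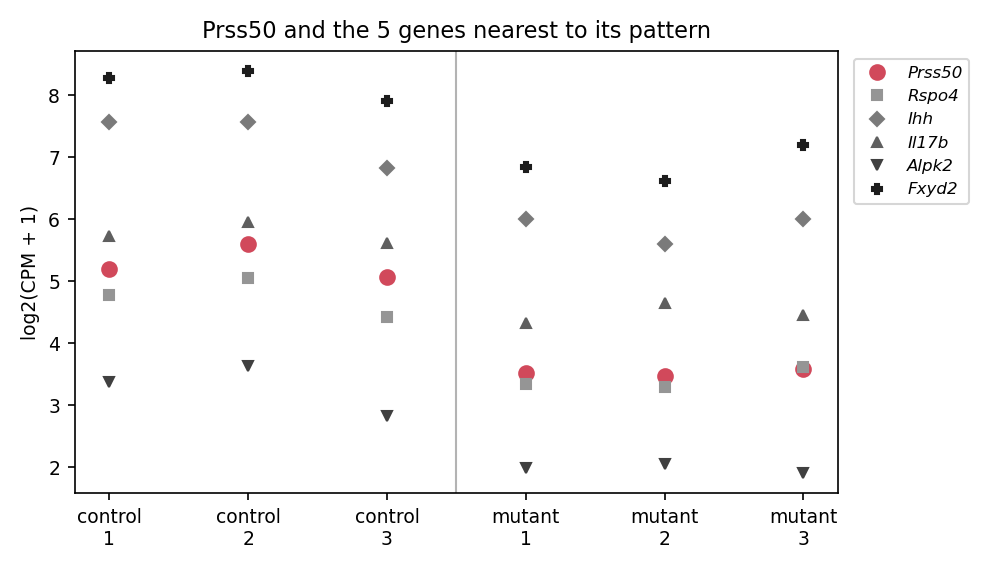
Levels as log2(CPM + 1) in each of 3 control and 3 mutant libraries for Prss50 and for the 5 genes nearest to its pattern once gene means are subtracted. All 6 genes step down from control to mutant libraries, Prss50 from 5.07 or more to 3.59 or less.

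Since Ihh is a marker of prehypertrophic chondrocytes, the cells that leave proliferation in the growth plate, Prss50 was set beside a list of 10 markers of prehypertrophic and hypertrophic chondrocytes. Of these, 5 fell and 0 rose at an unadjusted p under 0.05 in edgeR, where 4.32% of all genes fell and 2.89% rose, and 0 passed after adjustment. Ihh, whose likeness to Prss50 led to the list, is 1 of the 5, so the count is not independent of it, and without Ihh 4 of 9 fell. The median log2 fold change of the list was -0.60. The count of 5 became 2 without control replicate 1, the library rich in muscle transcripts, and 3 without mutant replicate 3. Among 10 markers of proliferating and resting chondrocytes 2 fell and 0 rose by the same test, the matrix proteins Matn3 and Ucma, with a list median of -0.30 and 0 after adjustment. That count became 1 when mutant replicate 1 or control replicate 2 was left out and 0 when mutant replicate 2 or mutant replicate 3 was. Panx3, a pannexin channel of prehypertrophic cells, fell from 66.4 to 108 CPM in control to 27.7 to 45.6 CPM in mutant libraries (log2 fold change -1.25, standard error 0.24, unadjusted p = 0.000331, adjusted p = 0.411 from edgeR). Pth1r is another of them. Runx2, a transcription factor of hypertrophy and bone, had a log2 fold change of -0.55 (edgeR, unadjusted p = 0.0282) and Mef2c one of -0.66 (edgeR, unadjusted p = 0.0239). Col10a1, the collagen of hypertrophic cells, was at 640.2, 329.5 and 226 CPM in control and 328, 190.1 and 116 CPM in mutant libraries, which overlap (log2 fold change -0.91, unadjusted p = 0.0573 from edgeR). Ibsp and Spp1, matrix proteins of hypertrophic cells and bone, had log2 fold changes of 0.44 and 0.28 (edgeR, unadjusted p = 0.129 and 0.189). Spp1 was at 587 to 724 CPM in control and 778 to 828 CPM in mutant libraries, without overlap. In 4 markers of the list every mutant library was below every control library. The prehypertrophic and hypertrophic list summed to 2706 to 4138 CPM in control and 2508 to 2997 CPM in mutant libraries, and its part in the level of Prss50 was not tested.

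Ratios within a library need no scaling between libraries. For 100 counts of Ihh there were 19.0, 25.1 and 29.1 counts of Prss50 in control and 16.5, 21.2 and 17.4 in mutant replicates 1 to 3, which overlap. For 100 counts of Pth1r, the receptor for parathyroid hormone-related protein, there were 3.27, 5.96 and 5.26 counts of Prss50 in control and 2.04, 2.13 and 2.01 in mutant libraries, which do not overlap. For 100 counts of Col10a1 there were 5.58, 14.4 and 14.5 in control and 3.19, 5.32 and 9.54 in mutant libraries, which overlap. These ratios use the Prss50 counts it was chosen by, and Ihh was picked for its likeness to them, so they are given as a description. Testis germ cell markers, of which 2 of 10 passed the filter, summed to 12.3 to 20 CPM in control and 10.7 to 13.5 CPM in mutant libraries, with Prm2 at 0 throughout.

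Prss50 is the last gene of a row of testis serine protease genes on the same strand. Within 200 kb of its start, 17 other genes are in the files and 7 passed the filter on low counts. The neighbours Prss42, Prss44, Prss43, Prss45 and Prss46, which start 59.8, 44.0, 31.3, 23.4 and 13.5 kb before it, had 19, 26, 9, 14 and 51 counts over all 6 libraries, compared with 1500 for Prss50. None of the 5 reached the filter, and the highest of their values was 3.28 CPM, of Prss46 in control replicate 3. Pth1r starts 110.8 kb away and is abundant, at 1092, 798 and 621 CPM in control and 512, 475 and 549 CPM in mutant libraries (log2 fold change -0.71, standard error 0.24, unadjusted p = 0.0147, adjusted p = 0.676 from edgeR). Tmie, a part of the hair cell transduction channel, ends just past Prss50 on the opposite strand, and had a log2 fold change of -0.56 (edgeR, unadjusted p = 0.0377). Als2cl, which overlaps Tmie at its start, had one of 0.08 (edgeR, unadjusted p = 0.752). Lrrc2, with 69 counts, and Ccrl2, an atypical chemokine receptor with 117 counts, had log2 fold changes of -2.04 and -1.56 (edgeR, unadjusted p = 0.0114 and 0.0330). Together 4 of the 7 tested neighbours fell, beside 4.32% of all genes, and 0 passed after adjustment. Pth1r is also among the prehypertrophic and hypertrophic markers that fell, so the count of neighbours and that of markers share this gene. Leaving out control replicate 1 gave 2 neighbours, as did leaving out the first or the second of the mutant replicates, and leaving out mutant replicate 3 gave 1. Myl3, a myosin light chain of muscle, was at 26.5 CPM in control replicate 1 and at 0.888 to 3.61 CPM elsewhere.

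**Figure D4:**
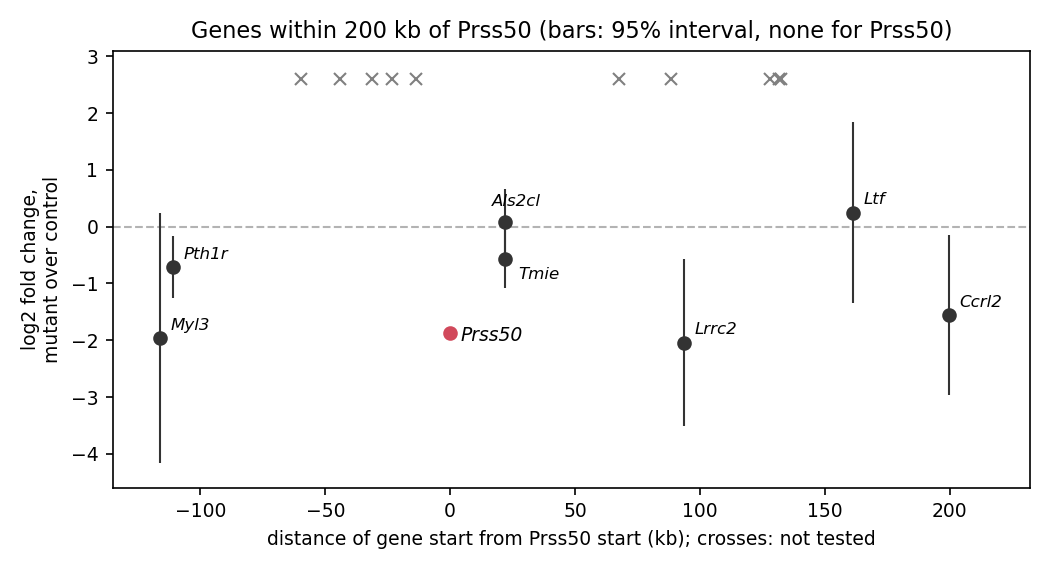
Log2 fold change of mutant over control (vertical axis) against the distance of each gene's start from that of Prss50 (kb), with 95% intervals for the 7 tested neighbours and none for Prss50, and crosses at the top for 10 neighbours with too few counts to test. The values run from -2.04 for Lrrc2 to 0.25 for Ltf, while the 5 Prss genes next to Prss50 are among the crosses.

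Most other genes of the PRSS family had few or no counts in the disc. Of 36 such genes, Htra4 included, 4 passed the filter, 9 had no count in any library, and the highest value of an untested one was 3.28 CPM. Prss36, which encodes polyserase-2, was at 18.1 to 26.8 CPM in control and 14.4 to 20.3 CPM in mutant libraries (log2 fold change -0.42, unadjusted p = 0.0839 from edgeR). Htra4 was at 16.3 to 30.5 CPM and 19.4 to 29.9 CPM (log2 fold change 0.21, unadjusted p = 0.439 from edgeR). Prss57, neutrophil serine protease 4, was at 11.4 to 14.1 CPM and 11 to 19.1 CPM (log2 fold change 0.24, unadjusted p = 0.359 from edgeR), and Prss53 had a log2 fold change of -0.29 (edgeR, unadjusted p = 0.649). In edgeR 0 of the 4 had an unadjusted p under 0.05, beside 7.21% of all genes and near that share, and 0 an adjusted one. The unadjusted count was 1 in limma-voom and also when either control replicate 1 or mutant replicate 1 was left out.

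Serine proteases of other families were examined as well, in a list that also holds Prss53, already counted among the Prss genes above. Of 32 tested genes of extracellular and membrane enzymes, 0 rose and 1 fell at an unadjusted p under 0.05, or 3.12% beside 7.21% of all genes in either direction, which is near that share at this number of genes, and their median log2 fold change was -0.02. The gene that fell was Corin, a membrane protease that activates natriuretic peptide, at 2.68, 4.89 and 4.92 CPM in control and 1.37, 1.88 and 1.91 CPM in mutant libraries (log2 fold change -1.27, standard error 0.48, unadjusted p = 0.0252, adjusted p = 0.676 from edgeR). Pcsk6 and Furin, proprotein convertases that activate growth factors and proteases, were the highest per length. Pcsk6 was at 294, 394 and 323 CPM in control and 479, 423 and 453 CPM in mutant libraries, without overlap on this scale (log2 fold change 0.42, unadjusted p = 0.0533 from edgeR). Its TPM values overlapped, at 150.5 to 222 in control and 198 to 253 in mutant libraries, and Furin had a log2 fold change of 0.11 (edgeR, unadjusted p = 0.701). The count of this list depended on single libraries, with 5 without control replicate 1, 3 without mutant replicate 1 or mutant replicate 2, 2 without control replicate 2 and 0 without control replicate 3.

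Among 29 tested inhibitors of serine proteases, 3 rose and 1 fell at an unadjusted p under 0.05, or 13.8% beside 7.21% of all genes, and the median was 0.07 on the log2 scale. After adjustment 0 passed. Among those that rose, Serpinf1, or pigment epithelium-derived factor, had a log2 fold change of 0.69 (edgeR, unadjusted p = 0.00748), and Serping1, the inhibitor of complement C1, had one of 0.44 (edgeR, unadjusted p = 0.0239). Serpina1a, an alpha-1-antitrypsin gene, fell from 13.1 to 38.3 CPM to 9.71 to 10 CPM (log2 fold change -1.36, unadjusted p = 0.00231 from edgeR), and it belongs to a family of near-identical copies between which reads may be split. Serpinh1, the collagen chaperone HSP47, was the highest per length with 2046 TPM in control and 1817 TPM in mutant IVDs (log2 fold change -0.04, unadjusted p = 0.871 from edgeR), followed by Pebp1, with a log2 fold change of 0.04 (edgeR, unadjusted p = 0.843).

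A list of 16 possible substrates of HTRA1 in matrix and signalling had 1 gene that rose and 1 that fell at an unadjusted p under 0.05 in edgeR, beside 2.89% and 4.32% of all genes, and the median on the log2 scale was 0.18. Igfbp5, which binds insulin-like growth factors, rose from 144 to 246 CPM in control to 263 to 353 CPM in mutant libraries (log2 fold change 0.66, unadjusted p = 0.0162, adjusted p = 0.676 from edgeR). Emilin1, a glycoprotein of elastic fibres, fell from 452 to 643 CPM to 364 to 415 CPM (log2 fold change -0.52, unadjusted p = 0.0292, adjusted p = 0.676 from edgeR). Col2a1 and Comp, the highest per length, had log2 fold changes of 0.27 and -0.40 (edgeR, unadjusted p = 0.572 and 0.233). The count of 2 became 0 without mutant replicate 2, 1 without mutant replicate 3, 5 in DESeq2 and 6 in limma-voom.

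For HTRA2, a list of mitochondrial quality control and IAP genes (inhibitors of apoptosis) had 27 tested genes. Of these 0 rose and 3 fell at an unadjusted p under 0.05 in edgeR, or 11.1% beside 7.21% of all genes, and the median log2 fold change was -0.10. Phb, or prohibitin, was at 42.3, 46.7 and 53.5 CPM in control and 32.5, 33.7 and 38.2 CPM in mutant libraries (log2 fold change -0.45, unadjusted p = 0.0206, adjusted p = 0.676 from edgeR). Aifm1, apoptosis-inducing factor, fell with a log2 fold change of -0.43 (edgeR, unadjusted p = 0.0277) and Park2, the ubiquitin ligase parkin, with one of -0.54 (edgeR, unadjusted p = 0.0280). Park7 and Pink1, both linked to Parkinson's disease and the highest per length, had log2 fold changes of -0.19 and -0.14 (edgeR, unadjusted p = 0.324 and 0.448). The count was 0 without mutant replicate 1 or control replicate 3 and 1 without mutant replicate 3, and 0 genes passed after adjustment.

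Markers of other cell types were also summed. Of 10 skeletal muscle markers, whose sum was high in control replicate 1 alone, 9 fell at an unadjusted p under 0.05 in edgeR. That compares with 4.32% of all genes, and 0 passed after adjustment. The median log2 fold change of these markers was -3.11. Among 7 tested serine proteases and markers of neutrophils and lymphocytes, 2 rose and 0 fell at an unadjusted p under 0.05 in edgeR, beside 2.89% and 4.32% of all genes, and 0 passed after adjustment. Mpo, the peroxidase of neutrophil granules, was at 2.25, 4.55 and 5.47 CPM in control and 30.5, 11.8 and 12.7 CPM in mutant libraries (log2 fold change 2.15, unadjusted p = 0.000661, adjusted p = 0.534 from edgeR), and Prtn3, proteinase 3, had a log2 fold change of 2.26 (edgeR, unadjusted p = 0.0285). The count of 2 became 1 when mutant replicate 1 was left out, in limma-voom and with the replicate number as a block. The list summed to 23.8 to 34.4 CPM in control and 41.8 to 79.9 CPM in mutant libraries. Mast cell proteases and markers summed to 4.49 to 10.9 CPM and 4.90 to 8.08 CPM, which overlap. Of 10 markers of tendon and outer annulus, 5 rose and 0 fell at an unadjusted p under 0.05 in edgeR, beside 2.89% and 4.32% of all genes, and 0 passed after adjustment. Their sums overlapped, at 12229.7 to 28113 CPM in control and 25797 to 45485 CPM in mutant libraries. Of 8 osteoblast markers 3 rose and 1 fell by the same test, with sums of 3914 to 12915 CPM and 11593 to 20267 CPM. Col1a1, a collagen gene of both tissues, is in both lists and is counted as a rise in each. Of 8 markers of neurons and glia 3 rose, with sums of 217 to 1656 CPM and 909 to 3582 CPM. Of 8 markers of red blood cell precursors 1 rose, with sums of 40.1 to 344 CPM and 215 to 452 CPM. Of 9 macrophage markers 1 rose, with sums of 73.3 to 103 CPM and 84.4 to 180.3 CPM. In each of these 4 lists 0 genes passed after adjustment and the sums of the genotypes overlapped. Over all genes 2.89% rose and 4.32% fell, and with so few genes 1 call in a list is near these shares. Of 8 tested nucleus pulposus markers and 10 endothelial markers, 0 rose and 0 fell at an unadjusted p under 0.05 in edgeR. The 4 osteoblast calls became 2 when mutant replicate 2, mutant replicate 3 or control replicate 3 was left out. For neurons and glia the count was 5 without control replicate 2, without mutant replicate 3 or with the block. For red blood cell precursors it was 6 without control replicate 1 and 2 without mutant replicate 3. The part of blood, annulus, bone and nerve cells in the levels of the 7 proteases was not tested.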

How the data were processed

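Poly(A) RNA of 3 mutant and 3 control pools of IVDs was sequenced in paired ends. The authors deposited raw counts of reads per gene symbol, without normalization. The methods name Cutadapt and HISAT2, while the submitters' processing notes name STAR 2.5.3a, HTSeq and DESeq2 with mm10. The strand setting is not given in the sources used here. The counts look as if made over gene bodies with a strand setting, on a kit that marks no strand. Reads of a gene could then be counted for a gene on the opposite strand, as for Htra1 and Fgfr2. Lines that name no gene were left out, among them 39.4% to 43.3% of reads assigned to no gene and 12% to 18.9% not aligned. With such a strand setting, reads assigned to no gene need not lie outside genes. A table of the authors' own comparison, with fold changes, p-values and 6 columns of scaled counts, was not used.

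Counts were normalized by TMM, filtered by filterByExpr at its count minimum of 10 and tested with edgeR 4.0.16 in R 4.3.3, with Benjamini-Hochberg adjustment over all genes. Standard errors are the size of the log2 fold change divided by the square root of F. TPM used merged exon lengths of GENCODE M21. Alternatives were RLE scaling, no filter, a block for the replicate number, tests in DESeq2 1.42.0 and in limma 3.58.1 (voom with quality weights), leaving out each library, and summed counts of overlapping genes. The edgeR procedure was run on simulated data, but the outcome is not given here and no result rests on it. Precision from depth covers counting error only. Named genes were the 7 members and, in each list, at most 4 with the smallest p among those at an unadjusted p under 0.05 with genotypes apart, the 2 highest per length, genes that overlap a member or start within 200 kb of Prss50, and the 5 nearest to Prss50 and to Htra1. Prss57, Prss53, Ibsp, Spp1, Mef2c, Col10a1 and the markers of tissue were named outside this rule, after their values were seen. The members and lists were chosen with earlier results of these data known. The values of 1 gene among the inhibitors are not reported here.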

Additional observations from a re-analysis of the deposited data

How the results depend on the processing

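The log2 fold change of Prss50 lay between -1.97 and -1.70 under all alternatives, with -1.86 with the replicate block. With the block, 0 of the other 6 proteases had an unadjusted p under 0.05, and of the counts given for the lists that of neutrophil and lymphocyte proteases moved from 2 to 1 and that of neurons and glia from 3 to 5, and those of the other lists run moved by no more than 1.5 times. The deviations of same-numbered libraries correlated at 0.159, -0.132 and 0.101 for replicates 1, 2 and 3, and those of differently numbered ones at -0.265 to 0.179. With 3 libraries a genotype, these values cannot decide whether the replicate numbers pair the libraries. Over all genes the count at an unadjusted p under 0.05 was 1002 with the block and 1164 without it.

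The count of the other 6 proteases at an unadjusted p under 0.05 was 0 to 1 with a library left out. For other Prss genes it was 0 to 1 with a library left out, and 1 without the filter on low counts and in limma-voom. For extracellular and membrane proteases it was 0 to 5 with a library left out, 5 without the filter, and 2 in DESeq2 and in limma-voom. For inhibitors it was 7 without the filter, and for HTRA1 substrates 0 to 3 with a library left out, 5 in DESeq2 and 6 in limma-voom. For the mitochondrial list it was 0 to 4, and for the neighbours of Prss50 1 to 4, with a library left out. For prehypertrophic and hypertrophic markers it was 2 to 5, for neutrophil and lymphocyte proteases 1 to 3 and for tendon and annulus markers 4 to 6 with a library left out, and limma-voom gave 1 for the neutrophil list. With a library left out it was 2 to 5 for osteoblasts, 2 to 5 for neurons and glia, 1 to 6 for red blood cell precursors and 0 to 2 for proliferating and resting chondrocytes. Without the filter it was 6 for neurons and glia and 7 for red blood cell precursors, which had 6 in limma-voom. The alternatives for the neighbours, for these 7 marker lists and the sum of Htra2, Loxl3 and Aup1 were chosen after seeing the data.

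With a library left out the log2 fold change lay between -1.30 and 0.02 for Prss35, -0.07 and 0.25 for Htra1, and -0.20 and 0.07 for Htra2, which was 0.00035 without mutant replicate 1 and 0.04 with Loxl3 and Aup1 summed. The cause of these changes was not tested. Counting error alone gives Prss35 a coefficient of variation of 12.7% in control and 15.2% in mutant libraries, and the measured ones were 47.8% and 84%.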
